A study of Homo sapiens with 12 samples.

Results

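HEXIM1 and 8 other genes of the machinery that holds and releases paused RNA polymerase II were followed across 6 groups of HEK293 libraries. The genes were HEXIM1, HEXIM2, CDK9, CCNT1, CCNT2, LARP7, MEPCE, NELFE and SUPT5H. They were chosen by name for their known part in this machinery, but with earlier results of these data known. Counts among them are therefore descriptions and not those of a set chosen blind. Each gene was found in the RPKM table by its Ensembl identifier and GENCODE symbol, which gave 9 of the 26058 genes listed. RPKM divides the reads of a gene by its length and by the size of the library. It does not correct for differences in what else a library holds, so values were scaled by each library's upper quartile before testing. All 9 passed the filter for testing, a mean of at least 0.5 RPKM over the 12 libraries, HEXIM2 with little margin at 0.634 RPKM.

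RNA polymerase II commonly stops soon after it starts a gene, held by the negative elongation factor NELF and by DSIF, the complex of SUPT5H and SUPT4H1. The kinase P-TEFb, made of CDK9 and cyclin T1 or T2, phosphorylates NELF, DSIF and the polymerase and so lets elongation begin. Much of the cell's P-TEFb is stored in an inactive form on the 7SK small nuclear RNA, where HEXIM1 or HEXIM2 blocks the kinase, LARP7 holds the RNA and MEPCE caps it. Growth factors such as EGF induce immediate early genes whose transcription depends on this release.

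The libraries came from HEK293, a human embryonic kidney line, as wild type (WT) and as a line with both AMPKα catalytic subunits deleted by CRISPR (AMPK KO). Whether the knockout line is 1 clone is not given in the sources used here. All cells were serum starved for 24 h, in 0.1% serum per the labels, where the study's general methods name a higher serum level. In each line there were 3 treatments: DMSO alone (0.025%), DMSO followed by EGF, and 25 µM cordycepin followed by EGF. Cordycepin or DMSO was given for 20 min before EGF and EGF for 30 min, 50 min in all. For DMSO alone the sources give either 20 or 50 min, and they give the EGF concentration in different units. Cordycepin is adenosine without its 3′ hydroxyl group, and an RNA chain that takes it up cannot be extended. Each of the 6 groups had 2 libraries, replicates 2 and 3, and the cordycepin and EGF comparisons share the DMSO+EGF libraries.

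WT DMSO replicate 3 was the shallowest library, with 4009621 reads on listed genes against 12680616 to 26452078 in the others. Replicates of WT DMSO correlated across genes with r = 0.918, and those of the other groups with 0.961 to 0.977. Of the targeted genes, PRKAA1 fell by 1.26 on the log2 scale in AMPK KO against WT in DMSO (SE 0.167, adjusted p = 0.0228, limma with Benjamini-Hochberg adjustment), while PRKAA2 differed by -0.73 (SE 0.202, adjusted p = 0.112, limma). Among defining genes of HEK293, NEFL was at 12.4 to 33.7 RPKM and INA at 11.9 to 20.9 RPKM in all libraries, whereas NEFM, PAX2 and LHX1 were under 1 RPKM throughout.

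HEXIM1 (ENSG00000186834) lies on GRCh38 chromosome 17 from 45148475 to 45152099, plus strand, and is a single exon. HEXIM2 (ENSG00000168517) follows it on the same strand from 45160700 to 45170040, with 8600 bases between them. The sequences just before the start sites of this neighbouring pair are shown because both genes had cordycepin libraries above DMSO+EGF in WT and below it in AMPK KO, at very different levels. Each is 250 bases of RefSeq sequence (GRCh38.p14), read 5′ to 3′ on the plus strand and ending at the base before the start site, with capitals for matches to the motifs listed after them.
HEXIM1, chr17:45148225-45148474: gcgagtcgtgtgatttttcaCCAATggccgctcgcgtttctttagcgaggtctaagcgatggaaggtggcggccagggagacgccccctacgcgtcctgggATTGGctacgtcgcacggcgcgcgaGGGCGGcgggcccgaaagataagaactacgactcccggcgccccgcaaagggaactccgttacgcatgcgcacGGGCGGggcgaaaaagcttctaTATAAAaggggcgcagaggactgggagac
HEXIM2, chr17:45161625-45161874: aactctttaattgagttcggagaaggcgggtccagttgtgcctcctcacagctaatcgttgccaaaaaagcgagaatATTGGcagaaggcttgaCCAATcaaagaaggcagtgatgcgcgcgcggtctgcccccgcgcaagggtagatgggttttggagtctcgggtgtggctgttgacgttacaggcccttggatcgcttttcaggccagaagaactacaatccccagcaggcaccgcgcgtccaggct

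The HEXIM1 window holds a TATA box (TATAAA) from base -29 to -24 before the start site, 2 GC boxes (GGGCGG) and 2 CCAAT boxes, the second of them read on the opposite strand as ATTGG. In GENCODE it also overlaps an exon of the long noncoding RNA gene ENSG00000276728, and no untranslated region. The HEXIM2 window, before the downstream of its RefSeq start sites, overlaps no annotated exon and holds 2 CCAAT boxes, 1 on each strand, with neither a GC box nor TATAAA. Over 34943 RefSeq windows of this length, 42.5% held a GC box, 32.0% a CCAAT box and 10.8% TATAAA on either strand.

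RefSeq gave 15 start windows for the 9 genes, with a GC content of 29.6% to 82.0% around a median of 58.0% for all windows. A GC box was found in 11 of the 15 windows and in at least 1 window of 8 genes, all but HEXIM2, and TATAAA in HEXIM1 alone. LARP7 was the gene with a cyclic AMP response element (TGACGTCA), in 1 window, which 1.63% of all windows held. SUPT5H was the gene with a YY1 motif (AAGATGGCG), in 2 overlapping windows, which 0.652% of all windows held. An ETS motif (CCGGAAG, 8.48% of all windows) was found in 3 of the 15 windows, of CCNT1, CDK9 and NELFE. An E-box (CACGTG, 6.32%) was found in 2 of the 15, of CCNT1 and MEPCE. None of the 15 windows held the EGR1 motif GCGGGGGCG (4.71% of all windows) or a CArG box (1.16%). These are matches of letters, searched on both strands, and were not tested as binding sites.

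The pausing factors were the most abundant of the 9 genes. Over the 12 libraries NELFE, a subunit of NELF, had a mean of 33.2 RPKM and SUPT5H a mean of 30.7 RPKM, followed by HEXIM1 at 26.2, CCNT1 at 23.0 and CDK9 at 15.9 RPKM. The remaining genes were lower, with CCNT2 at 5.26, LARP7 at 3.10, MEPCE at 2.55 and HEXIM2 at 0.634 RPKM. Neighbours in this order were separated in every library for SUPT5H over HEXIM1, CCNT1 over CDK9, CDK9 over CCNT2, CCNT2 over LARP7 and MEPCE over HEXIM2. NELFE exceeded SUPT5H in 9 of 12 libraries, HEXIM1 exceeded CCNT1 in 10 of 12 and LARP7 exceeded MEPCE in 8 of 12, so the order within those pairs was not fixed.

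**Figure D1:**
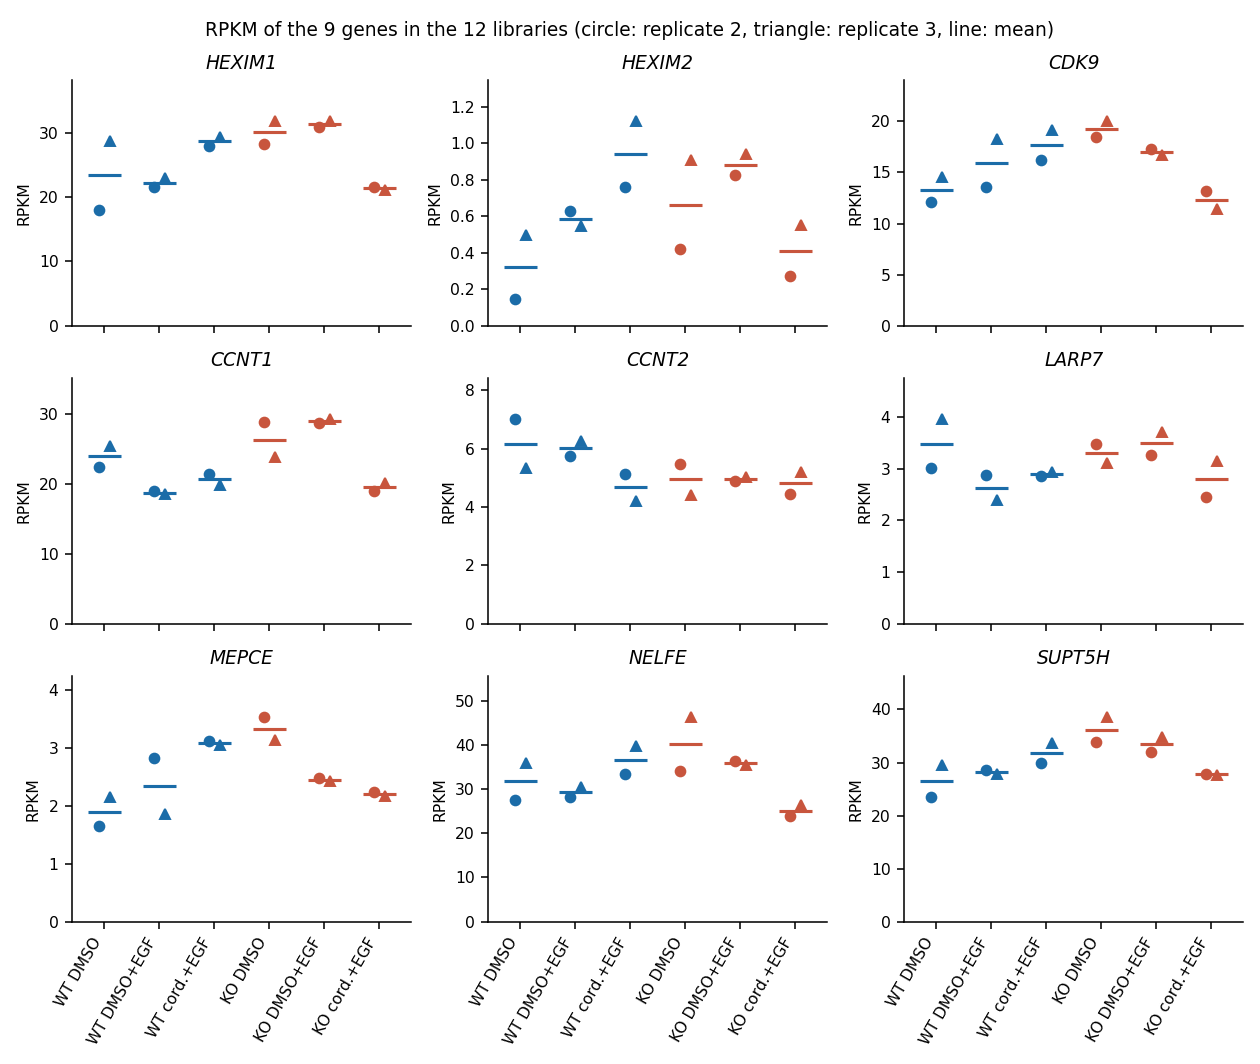
Deposited RPKM of each of the 9 genes (vertical axes from 0, a scale of its own for each gene) in the 6 groups (horizontal axes; cord. stands for cordycepin), with WT in blue and AMPK KO in red, 1 point per library and a line at the group mean. HEXIM1 in AMPK KO cells with cordycepin and EGF sits at 21.1 and 21.6 RPKM, below every other AMPK KO library.

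HEXIM1, the main 7SK-dependent inhibitor of P-TEFb, was at 18.0 and 28.8 RPKM in WT DMSO replicates 2 and 3, at 21.5 and 22.9 in WT DMSO+EGF, and at 28.0 and 29.4 in WT cordycepin+EGF. In AMPK KO cells it was at 28.3 and 31.8 RPKM in DMSO, at 30.9 and 31.8 in DMSO+EGF, and at 21.6 and 21.1 in cordycepin+EGF. With cordycepin the WT libraries thus lay above both DMSO+EGF libraries, and the AMPK KO libraries lay below theirs. WT DMSO was the group with the widest spread, and its shallow replicate 3 held 421 HEXIM1 reads against 1113 in replicate 2.

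HEXIM2, the paralogue that can take HEXIM1's place on 7SK, was close to the limit of detection. It was at 0.146 and 0.495 RPKM in WT DMSO, at 0.629 and 0.545 in WT DMSO+EGF, and at 0.760 and 1.12 in WT cordycepin+EGF. AMPK KO cells had 0.421 and 0.907 RPKM in DMSO, 0.828 and 0.938 in DMSO+EGF, and 0.272 and 0.552 in cordycepin+EGF. These values rest on 4 to 44 reads per library, and the 4 reads of WT DMSO replicate 3 have an exact 95% Poisson interval of 1.09 to 10.2 reads, which covers counting error only. HEXIM2 has overlapping noncoding genes on the opposite strand, among them HEXIM2-AS1, which shares 839 bases with it and 1700 bases with HEXIM1 and was listed at 0.296 to 1.25 RPKM. The libraries were stranded, but whether strand was used in counting is not given in the sources used here, so the HEXIM2 values are uncertain. The lowest HEXIM1 library, at 18.0 RPKM, was above the highest HEXIM2-AS1 library.

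CDK9 (ENSG00000136807, chromosome 9, 127785679 to 127790792, plus strand), the catalytic subunit of P-TEFb, was at 12.1 and 14.5 RPKM in WT DMSO, at 13.6 and 18.3 in WT DMSO+EGF, and at 16.2 and 19.1 in WT cordycepin+EGF. In AMPK KO cells its levels were 18.5 and 20.0 RPKM in DMSO, 17.3 and 16.7 in DMSO+EGF, and 13.2 and 11.4 in cordycepin+EGF. The cordycepin and DMSO+EGF libraries overlapped in WT and were apart in AMPK KO, where cordycepin was lower.

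CCNT1 (ENSG00000129315, chromosome 12, 48688458 to 48716998, minus strand) encodes cyclin T1, a partner of CDK9, and had a higher transcript level than CCNT2 here. Its level was 22.4 and 25.5 RPKM in WT DMSO, 19.0 and 18.5 in WT DMSO+EGF, and 21.5 and 19.8 in WT cordycepin+EGF. AMPK KO cells had 28.9 and 23.8 RPKM in DMSO, 28.8 and 29.3 in DMSO+EGF, and 19.0 and 20.1 in cordycepin+EGF. The closest replicates and the widest gap between cell lines were both in DMSO+EGF.

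CCNT2 (ENSG00000082258, chromosome 2, 134918235 to 134959342, plus strand), which encodes cyclin T2, stood apart from the other genes. It was at 7.01 and 5.33 RPKM in WT DMSO, at 5.74 and 6.27 in WT DMSO+EGF, and at 5.14 and 4.22 in WT cordycepin+EGF, where both libraries were below DMSO+EGF. All 6 AMPK KO libraries lay within 4.41 to 5.47 RPKM. An antisense gene, CCNT2-AS1, shares 478 bases with CCNT2 and was listed at 2.22 to 6.96 RPKM, so reads of the pair could be mixed if strand was not used.

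LARP7 (ENSG00000174720, chromosome 4, 112637077 to 112657696, plus strand), which protects 7SK RNA, ranged from 2.39 to 3.96 RPKM, with WT DMSO+EGF at 2.87 and 2.39 and WT cordycepin+EGF at 2.85 and 2.93 RPKM. Its AMPK KO values were 3.27 and 3.71 RPKM in DMSO+EGF and 2.46 and 3.14 in cordycepin+EGF. On the deposited scale the WT pair overlapped slightly, whereas after upper-quartile scaling the cordycepin libraries were above. MEPCE (ENSG00000146834, chromosome 7, 100428322 to 100434126, plus strand), the 7SK capping enzyme, was at 2.82 and 1.86 RPKM in WT DMSO+EGF, at 3.11 and 3.05 in WT cordycepin+EGF, at 2.47 and 2.43 in AMPK KO DMSO+EGF and at 2.23 and 2.16 in AMPK KO cordycepin+EGF. The lowest MEPCE library had 29 reads and the lowest LARP7 library 129, both WT DMSO replicate 3. MEPCE's span overlaps over 5786 bases with that of ENSG00000289690, a protein-coding gene on the same strand, which was not analysed here, so its value is uncertain. Processed pseudogenes of LARP7 and CCNT2 are annotated and were not analysed here, and how reads shared with them were counted is not known.

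NELFE (ENSG00000204356, chromosome 6, 31952087 to 31959038, minus strand) was at 28.3 and 30.6 RPKM in WT DMSO+EGF and at 33.5 and 39.9 in WT cordycepin+EGF, and in AMPK KO at 36.5 and 35.6 RPKM in DMSO+EGF and at 23.9 and 26.4 in cordycepin+EGF. SUPT5H (ENSG00000196235, chromosome 19, 39436156 to 39476670, plus strand), the large subunit of DSIF, kept to a narrower range, at 28.6 and 27.9 RPKM in WT DMSO+EGF, 29.9 and 33.7 in WT cordycepin+EGF, 31.9 and 34.9 in AMPK KO DMSO+EGF and 27.9 and 27.6 in AMPK KO cordycepin+EGF. Under DMSO alone, NELFE had 27.6 and 36.0 RPKM in WT and 34.1 and 46.4 in AMPK KO, and SUPT5H had 23.5 and 29.6 RPKM in WT and 33.8 and 38.6 in AMPK KO. For both genes the AMPK KO cordycepin libraries were the lowest of the knockout line.

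Cells with EGF were set against cells with DMSO alone to ask whether 30 min of growth factor changed these transcripts. No member passed an adjusted p of 0.05 in either line (limma, Benjamini-Hochberg), where 0.0227% of all 22067 tested genes did in WT and 0.0136% in AMPK KO. At an unadjusted p under 0.05 there was 1 member in WT and 0 in AMPK KO, against 9.72% and 2.42% of tested genes, and voom on reads recovered from the RPKM values called 0 in both. HEXIM1 had a log2 fold change of -0.07 in WT (95% interval -0.48 to 0.34) and of 0.07 in AMPK KO (-0.33 to 0.48), on the scale of log2(scaled RPKM + 0.5) used for all folds here. The WT value and its sign rested on the DMSO libraries, being -0.40 without WT DMSO replicate 2 (adjusted p = 0.0833, limma) and 0.26 without replicate 3 (adjusted p = 0.515, limma). CCNT1 in WT was the member with the unadjusted p, at -0.37 (SE 0.124, adjusted p = 0.484, limma), and both of its EGF libraries were below both DMSO libraries, as in 18.0% of tested genes. The medians over the 9 members were -0.053 in WT and 0.019 in AMPK KO, against 0.016 and 0.0063 over all tested genes.

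Within each line, cordycepin+EGF libraries were then set against DMSO+EGF libraries to ask how these transcripts responded to the drug in WT and in AMPK KO cells. In WT cells 8 of the 9 members had a positive log2 fold change and in AMPK KO cells 8 had a negative one, whereas 53.5% of all tested genes were positive in WT and 55.1% in AMPK KO. CCNT2 was the exception both times, at -0.29 in WT and 0.00 in AMPK KO. Median log2 fold changes of the members were 0.21 in WT and -0.41 in AMPK KO, and those of all tested genes were 0.033 and 0.056. Of the 9 genes 5 had a mean of at least 10 RPKM, and for the 4191 protein-coding genes at that level the median was 0.00078 in WT but -0.22 in AMPK KO, where 78.3% of them were negative. A negative value in AMPK KO was thus common to abundant coding genes. HEXIM1 had 0.41 (SE 0.179) in WT and -0.49 (SE 0.179) in AMPK KO, or 1.33-fold higher and 1.41-fold lower. NELFE had 0.35 and -0.47, CCNT1 0.18 and -0.51, CDK9 0.19 and -0.41, and SUPT5H 0.21 and -0.21. The CDK9 value in WT was 0.00 without WT DMSO+EGF replicate 2 and 0.39 without replicate 3.

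None of these differences passed adjustment over all genes. In WT the lowest adjusted p of a member was 0.311, that of HEXIM1 (limma, Benjamini-Hochberg), and 1 member had an unadjusted p under 0.05, as did 16.0% of tested genes. The share of all tested genes called was 0.00453% in WT and 0.471% in AMPK KO. In AMPK KO the lowest adjusted p was 0.0795, that of CCNT1 (limma), and 4 members, HEXIM1, CDK9, CCNT1 and NELFE, had an unadjusted p under 0.05, as did 21.8% of all tested genes in either direction and 10.1% in the lower direction. With voom on recovered reads CCNT1 was called in AMPK KO (adjusted p = 0.0261), where voom called 5.98% of all genes, and 0 members were called in WT, where it called 4.14%. Leaving out WT DMSO replicate 2 or replicate 3, neither of which is in this comparison but both of which enter the shared spread, brought HEXIM1 to an adjusted p of 0.0311 or 0.0307 and CCNT1 to 0.0455 or 0.0456 in AMPK KO (limma). With those libraries left out 6.26% or 6.17% of all tested genes were called.

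**Figure D2:**
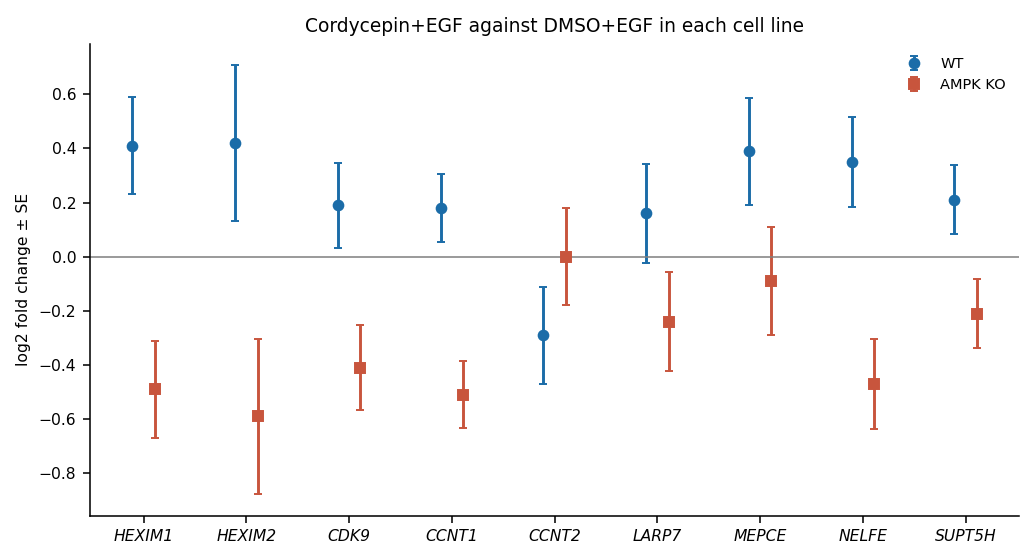
Log2 fold change of each gene for cordycepin+EGF against DMSO+EGF (vertical axis; bars are moderated standard errors from limma) in WT (blue circles) and AMPK KO (red squares), 2 libraries per group. All genes except CCNT2 lie above 0 in WT and below 0 in AMPK KO.

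Of the 9 genes, 7 had both WT cordycepin libraries above both WT DMSO+EGF libraries and both AMPK KO cordycepin libraries below both AMPK KO DMSO+EGF libraries: HEXIM1, HEXIM2, CCNT1, LARP7, MEPCE, NELFE and SUPT5H. This pattern was found in 9.06% of all tested genes, and its mirror image, lower in WT and higher in AMPK KO, in 10.1%. The pattern itself was found in 13% of protein-coding genes and in 18.4% of those with a mean of at least 10 RPKM. Because the 9 genes were chosen with earlier results of these data known, their share is a description and carries no test. With RPKM as deposited or with median-ratio scaling the count was 6, without LARP7. The difference between the cell lines was tested as an interaction. For HEXIM1 the cordycepin effect in AMPK KO minus that in WT was -0.90 (SE 0.254, 95% interval -1.48 to -0.33, adjusted p = 0.128, limma). For NELFE it was -0.82 (SE 0.236, adjusted p = 0.133, limma) and for CCNT1 -0.69 (SE 0.175, adjusted p = 0.122, limma). HEXIM2 had -1.01 with an SE of 0.406, CDK9 -0.60, SUPT5H -0.42, MEPCE -0.48, LARP7 -0.40 and CCNT2 0.29.

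No member and no gene at all passed adjustment in this interaction (limma, 0.0% of tested genes), while 6 members had an unadjusted p under 0.05, all lower in AMPK KO, against 10.5% of tested genes in that direction. The outcome differed between ways of estimating the spread. HEXIM1, CCNT1 and NELFE passed when the fit held only the 4 groups compared, with voom on recovered reads, without WT DMSO replicate 2 and without WT DMSO replicate 3, with adjusted p of 0.0381, 0.0240, 0.0190 and 0.0191 for HEXIM1. In the same settings 5.11%, 9.43%, 9.03% and 9.03% of all tested genes were called. The median interaction was 0.019 over all tested genes and -0.23 over protein-coding genes of at least 10 RPKM. Some measures of the libraries differed with cordycepin as well, in both lines or in AMPK KO. The read total behind the RPKM values, divided by the reads on listed genes, was 1.15 and 1.06 in AMPK KO cordycepin+EGF against 0.974 and 0.976 in AMPK KO DMSO+EGF, and 1.09 and 1.04 against 1.01 and 0.987 in WT. The share of reads on long noncoding RNA genes was 5.87% and 4.34% against 3.92% and 4.20% in AMPK KO. In WT this share was 4.98% and 4.06% against overlapping values of 4.56% and 3.82%. Their part in the members' values was not tested. Fewer transcripts per cell and fewer cells carrying them cannot be told apart in bulk RNA.

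The cell lines were compared under each treatment to ask how these transcripts differed between them. Each genotype was a single line, so loss of AMPKα and other differences between the lines cannot be told apart. Only CCNT1 was called, in DMSO+EGF, where AMPK KO libraries (28.8 and 29.3 RPKM) were above WT libraries (19.0 and 18.5 RPKM) with a log2 fold change of 0.64, or 1.55-fold (SE 0.124, adjusted p = 0.0475, limma). In that comparison 1.74% of all tested genes were called, 0.929% as higher in AMPK KO. Positive values were found for 8 of 9 members and 49.5% of all genes, with medians of 0.31 and -0.0047. Among protein-coding genes of at least 10 RPKM 63.8% were positive, with a median of 0.11. CDK9 at 0.12 became -0.08 without WT DMSO+EGF replicate 2, and MEPCE at 0.09 became -0.17 without replicate 3. HEXIM1 was at 0.51 (SE 0.179, adjusted p = 0.145, limma). The CCNT1 call was near the threshold: its adjusted p was 0.0502 with median-ratio scaling, 0.0675 without the variance trend, 0.0526 with the replicate number as a block, 0.0650 with that block within each line, and 0.0594 to 0.294 when any library outside WT DMSO was left out (limma), at a log2 fold change of 0.61 to 0.67. HEXIM1 was called too, at the same 0.51, when the fit held those groups alone (adjusted p = 0.0363, limma) and without either WT DMSO library (0.0175 each). These settings called 10.0% of all tested genes and, without a WT DMSO library, 10.7%.

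Under DMSO alone no member was called (limma; 0.44% of all tested genes were) although 3 had an unadjusted p under 0.05, as did 21.3% of tested genes in either direction: MEPCE at 0.66, CDK9 at 0.50 and SUPT5H at 0.43. In these genes both AMPK KO libraries exceeded both WT libraries, as in 25.3% of tested genes. Voom on recovered reads called MEPCE and SUPT5H (adjusted p of 0.0480 and 0.0455), among 8.04% of all genes. HEXIM1 differed by 0.37 (SE 0.179, adjusted p = 0.271, limma), and this value rested on the WT libraries: it was 0.04 without WT DMSO replicate 2 and 0.69 without replicate 3 (adjusted p = 0.0135, limma). Without replicate 3 SUPT5H was called as well, at 0.58 (adjusted p = 0.0245, limma), and 13.8% of all tested genes were.

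With cordycepin and EGF the sign was the other way. Negative values were found for 8 of 9 members while 51.6% of all genes were positive, with a median of -0.39 against 0.014 for all genes and -0.11 for protein-coding genes of at least 10 RPKM. CDK9 at -0.48, NELFE at -0.51 and HEXIM2 at -0.66 had an unadjusted p under 0.05, as did 6.64% of tested genes in that direction. None was called by limma (lowest adjusted p = 0.269, 0.118% of all tested genes called), nor by voom. HEXIM1 was at -0.39 (SE 0.179). CCNT1 was at -0.06 (95% interval -0.34 to 0.22), and its libraries of the 2 lines overlapped. Averaged over the 3 treatments, CCNT1 differed by 0.23 (SE 0.0716, adjusted p = 0.113, limma) and HEXIM1 by 0.16 (SE 0.104), and no member was called, where 4.34% of all genes were. Without WT DMSO replicate 3 HEXIM1 was called in that average, at 0.27 (adjusted p = 0.0214, limma), as were 13.1% of all tested genes. These comparisons share libraries with those of cordycepin and EGF, and are further views of the same 12 values per gene.

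**Figure D3:**
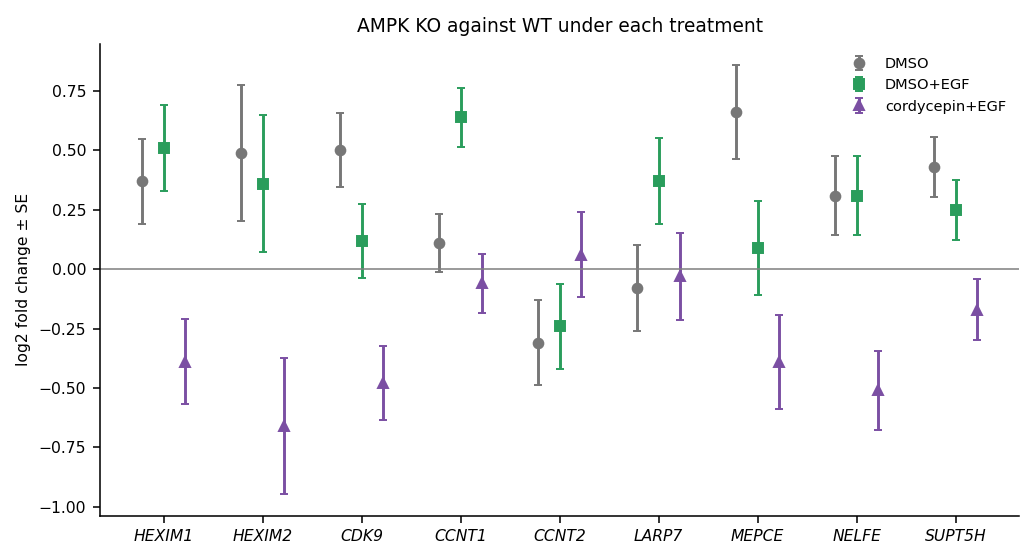
Log2 fold change of each gene in AMPK KO against WT (vertical axis; bars are moderated standard errors from limma) in DMSO (grey circles), DMSO+EGF (green squares) and cordycepin+EGF (purple triangles). HEXIM1, HEXIM2, CDK9, CCNT1, MEPCE, NELFE and SUPT5H lie above 0 in both DMSO groups and below 0 with cordycepin.

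The balance between alternative subunits was compared between the lines within treatments. The log2 ratio of HEXIM1 to HEXIM2 was 5.54 ± 0.787 (SD, n = 6) in WT and 5.51 ± 0.535 (SD, n = 6) in AMPK KO, a difference of -0.02 (exact stratified permutation test, two-sided, p = 0.944). Library by library HEXIM1 exceeded HEXIM2 from 26.3 times in WT cordycepin+EGF replicate 3 to 123 times in WT DMSO replicate 2, where 5 HEXIM2 reads set the ratio. CCNT1 to CCNT2 was 1.92 ± 0.303 (SD, n = 6) in WT and 2.33 ± 0.249 (SD, n = 6) in AMPK KO, a difference of 0.41 (exact stratified permutation test, two-sided, p = 0.0833, smallest possible 0.00926 over 216 assignments). As a ratio, cyclin T1 transcripts were 2.95 to 3.30 times those of cyclin T2 in WT DMSO+EGF and 5.83 to 5.90 times in AMPK KO DMSO+EGF. The WT and AMPK KO libraries overlapped with cordycepin, and were apart in DMSO and in DMSO+EGF. Leaving out 1 library at a time moved the difference both above and below 0.41. It was largest without WT DMSO replicate 3, at 0.48, and without AMPK KO cordycepin+EGF replicate 3, at 0.49.

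**Figure D4:**
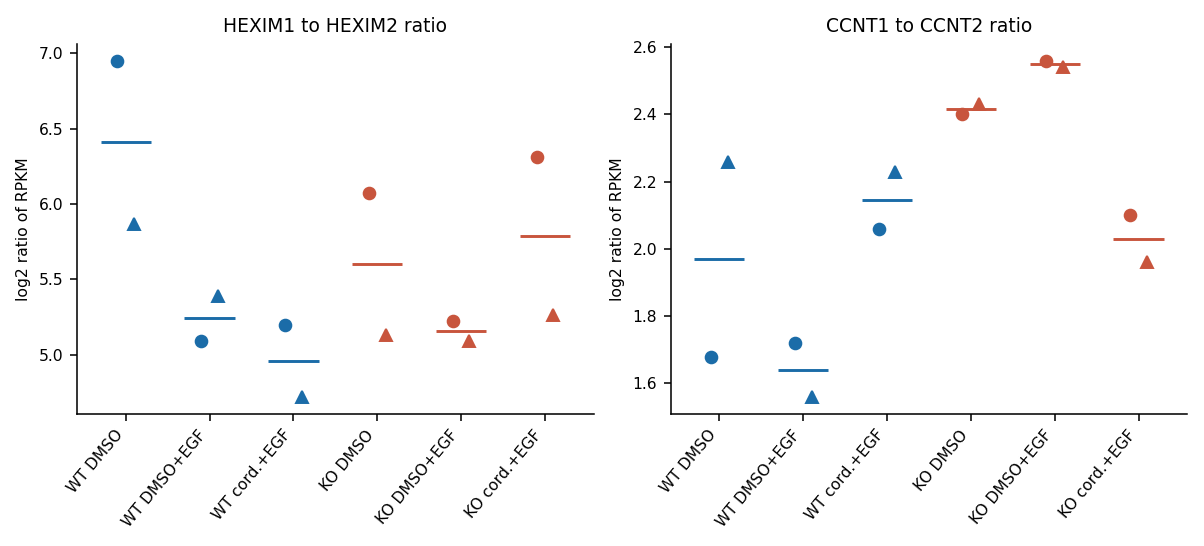
Log2 ratio of RPKM (vertical axes, not starting at 0) of HEXIM1 to HEXIM2 and of CCNT1 to CCNT2 in the 12 libraries, with circles for replicate 2, triangles for replicate 3 and a line at the group mean. The CCNT1 to CCNT2 ratio is highest in AMPK KO DMSO+EGF, at 2.56 and 2.54.

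Other genes of the same process were taken as 8 lists of 68 genes in all: proteins that bind 7SK, the remaining NELF and DSIF subunits, the super elongation complex, BET proteins, the PAF1 complex with other elongation factors, other transcription kinases, Integrator and RNA polymerase II itself. Of these 66 were tested. RN7SK was not analysed here, and NELFCD fell below the filter. In WT cells cordycepin gave 34 positive and 32 negative log2 fold changes among them, with a median of 0.0098. In AMPK KO cells 10 were positive and 56 negative, with a median of -0.20, against 0.056 for all tested genes and -0.22 for protein-coding genes of at least 10 RPKM, which is close to that of the lists. None was called in either line (limma, lowest adjusted p 0.252 and 0.0644), with 4 and 20 at an unadjusted p under 0.05, against 16.0% and 21.8% of all tested genes. Voom on recovered reads called 3 and 9 of them, against 4.14% and 5.98% of all genes.

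Non-overlapping shifts up in WT and down in AMPK KO were found in 9 of the 66 list genes (13.6%), a share near the 13% of all protein-coding genes and below the 18.4% of those with at least 10 RPKM. They were AFF4, EAF1 and ELL3 of the super elongation complex, NELFA, the 7SK partner JMJD6, PAF1, INTS10, INTS11 and POLR2H. The 7SK-binding proteins had a median of -0.23 in WT and -0.30 in AMPK KO. In AMPK KO all 9 tested were negative, as were 78.3% of protein-coding genes with a mean of at least 10 RPKM. DDX21, a helicase that releases P-TEFb from 7SK, was at -0.62 (SE 0.158, adjusted p = 0.0868, limma) in AMPK KO, and the phosphatase PPM1G at -0.35. The 3 tested subunits beside NELFE and SUPT5H had a median of 0.17 in WT and -0.30 in AMPK KO, with NELFA at 0.19 and -0.30 and SUPT4H1 at -0.56 in AMPK KO.

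Of the super elongation complex, which brings P-TEFb to the polymerase, AFF4 (its scaffold) was at -0.64 and EAF1 at -0.67 with cordycepin in AMPK KO (adjusted p of 0.0644 and 0.0685, limma), and ELL3 at 1.01 in WT. The BET protein BRD2 was at -0.42 in AMPK KO. In the list of the PAF1 complex and elongation factors 8 of 9 genes were negative in AMPK KO, CTR9 at -0.49 and RTF1 at -0.40. CDK7 was at -0.43 and MNAT1, its partner in TFIIH, at 0.37 in AMPK KO and -0.86 in WT. Integrator, which ends transcription at paused polymerases, had 12 of 14 genes negative, INTS7 at -0.38 and INTS5 at 0.44, while INTS5 was at -0.87 in WT. Of the polymerase subunits POLR2I was at -0.86 and POLR2H at -0.76 in AMPK KO, and 10 of 13 were negative. Among protein-coding genes with a mean of at least 10 RPKM, 78.3% were negative in AMPK KO, so negative values were common there too. The genes named here are those with the largest changes in their lists.

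**Figure D5:**
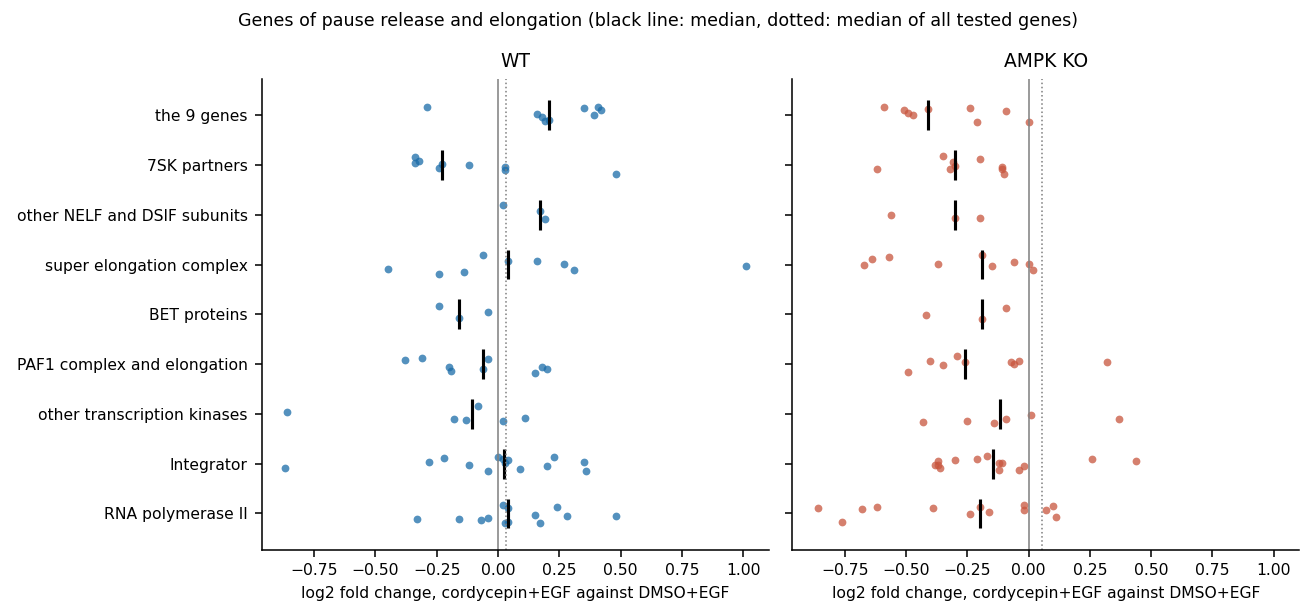
Log2 fold change for cordycepin+EGF against DMSO+EGF (horizontal axes) of the 9 genes and of the 8 lists (rows), in WT (left) and AMPK KO (right), 1 point per gene, with a black line at each median and a dotted line at the median of all tested genes. Every row's median is negative in AMPK KO, while in WT the 9 genes have a median of 0.21.

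Between the lines 1 of the 66 tested list genes passed adjustment, both in DMSO+EGF and over the 3 treatments. Of all tested genes 1.74% and 4.34% did, so list genes were not called more often than genes at large. The gene was EAF1, a partner of the elongation factor ELL. It was higher in AMPK KO in DMSO+EGF by 0.99 (SE 0.147, adjusted p = 0.0236, limma) and over the 3 treatments by 0.51 (adjusted p = 0.0133, limma). Leaving out 1 library at a time gave it an adjusted p of 0.00834 to 0.248 in DMSO+EGF, and the call was lost when any DMSO+EGF library or either AMPK KO DMSO library was left out. For the average the adjusted p was at most 0.0596, and the call was lost without WT DMSO+EGF replicate 2, AMPK KO DMSO replicate 2 or AMPK KO DMSO+EGF replicate 3. The values were log2 fold changes of 0.91 to 1.07 in DMSO+EGF and 0.45 to 0.58 for the average. INTS5 at -1.12 and CTR9 at 0.60 came next in DMSO+EGF (adjusted p of 0.0587 and 0.0630, limma).

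The genes whose levels most resembled those of HEXIM1 over the 12 libraries were FAM219A (Pearson r = 0.976), ZBTB7B (0.972), DRAP1 (0.971), CDKN2D (0.965) and GABARAPL1 (0.962), out of 18783 genes with a mean of at least 1 RPKM. FAM219A was at 8.25 and 19.4 RPKM in WT DMSO, at 12.1 and 11.1 in WT DMSO+EGF and at 17.9 and 20.3 in WT cordycepin+EGF. In AMPK KO it was at 20.1 and 20.9 RPKM in DMSO, at 18.7 and 20.4 in DMSO+EGF and at 12.1 and 11.1 in cordycepin+EGF, so that it was high and low in the same groups as HEXIM1 and had the same direction of gap between the WT DMSO replicates. Among the members SUPT5H was most like HEXIM1, with r = 0.892 and rank 322, then NELFE with 0.854 and CDK9 with 0.757, and CCNT2 ran opposite with -0.693. The points share 12 libraries in 6 groups, so these correlations describe this set of libraries and carry no test.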

How the data were processed

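Libraries were made from ribosomal RNA-depleted total RNA and read as stranded 150-base pairs. Per the labels and the study's methods the authors used Rsubread to count reads mapped to GRCh38.p13, discarded replicate 1 of each group and deposited RPKM values. The Rsubread version, annotation and strand setting are not given in the sources used here.

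Symbols and positions came from GENCODE 44 (GRCh38). RPKM values were scaled by each library's upper quartile and tested as log2(scaled RPKM + 0.5) for the 22067 genes with a mean of at least 0.5 RPKM, with limma 3.58.1 under R 4.3.3 (a linear model and moderated tests with a variance trend, all 12 libraries, group means, two-sided, Benjamini-Hochberg over all tested genes in each of 12 comparisons, threshold 0.05). Folds of low genes are understated. RPKM steps gave whole reads, within 0.05 of a read, for 96.25% of genes at the annotated exon length and 99.34% after a search for the length. Voom used these reads (21930 genes). The exact permutation test exchanged labels within treatments. The fit was tested on simulated data.

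The members, the lists and the rules were chosen with earlier results of these data known. Named genes were the members, PRKAA1 and PRKAA2, list genes called or with up to 2 of the largest changes per list, and the 5 genes most like HEXIM1. The 9 list genes with opposite shifts were named after their values were seen. The study calls the replicates biological, but what separated them is not given in the sources used here, and p-values measure the spread between these samples. The values of 1 list gene that the naming rule covers are not reported here.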

Additional observations from a re-analysis of the deposited data

Results flagged for a closer look

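In 7 of the 9 genes both WT cordycepin+EGF libraries lay above both WT DMSO+EGF libraries on the scaled values. Both AMPK KO cordycepin+EGF libraries lay below theirs, so the log2 fold changes had opposite signs in the 2 cell lines. For all of these genes but HEXIM1 the 95% interval in WT included 0, as for LARP7 at 0.16 (-0.25 to 0.57). MEPCE in AMPK KO was at -0.09 (95% interval -0.54 to 0.36). On RPKM as deposited the WT libraries of LARP7 overlapped. The difference itself, AMPK KO minus WT, was -0.90 for HEXIM1, -1.01 for HEXIM2, -0.69 for CCNT1, -0.40 for LARP7, -0.48 for MEPCE, -0.82 for NELFE and -0.42 for SUPT5H on the log2 scale. None of these passed the interaction test after adjustment over all genes (limma, adjusted p 0.122 to 0.399), and for LARP7 and MEPCE the unadjusted p was 0.159 and 0.119. Across all tested genes 9.06% showed this pattern, and 10.1% showed its mirror image, lower in WT and higher in AMPK KO. Among protein-coding genes with a mean of at least 10 RPKM, 18.4% showed the pattern.

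Among the genes of the 8 lists the same pattern gave differences of -0.80 for AFF4, -1.38 for ELL3, -0.94 for EAF1, -0.81 for JMJD6, -0.50 for NELFA, -0.41 for PAF1, -0.72 for INTS10, -0.37 for INTS11 and -1.24 for POLR2H, with adjusted p of 0.122 to 0.362 (limma). Groups of 2 libraries are too small for a test of outlying samples.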

How the results depend on the processing

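The count of members called in DMSO+EGF between the lines, 1 as reported, was 0 with median-ratio scaling, without the variance trend, with the replicate number as a block over all libraries (adjusted p for CCNT1 0.0526) and with a replicate block within each line (0.0650). It was 2 with only the compared groups, where 10.0% of all tested genes were called, and with array weights, where 22.8% were. The count also changed when 1 library was left out. No label says that a replicate number marks a shared batch or day. The differences between replicates correlated at 0.136 to 0.314 among WT groups, all above 0.1, and at -0.122 to 0.0307 among AMPK KO groups. Between groups of different lines they ran from -0.0809 to 0.322, highest for WT cordycepin+EGF with AMPK KO DMSO. A pairing over all groups was not shown, and one among some groups was not tested. The block changed no other member call. For cordycepin in AMPK KO the count of 0 became 1 with voom and with array weights, which called 5.98% and 5.41% of all genes. Between the lines in DMSO it became 2 with voom, which called 8.04% of all genes. The cordycepin interaction had 3 members with only the compared groups and with voom, and 2 with array weights. These settings called 5.11%, 9.43% and 6.6% of all genes. Leaving out 1 library changed each of these counts as well, and the count for the average over treatments. The cause of these changes was not tested. The HEXIM1 to HEXIM2 difference was 0.09 with a pseudocount of 0.5 and -0.19 to 0.26 without 1 library, and the CCNT1 to CCNT2 difference was 0.34 to 0.49. HEXIM2 folds depended on the pseudocount, its interaction being -1.57 at 0.1. Array weights and the alternatives for the opposite shifts, with 6 to 8 members, were chosen after seeing the data. Each group had 2 libraries, and the shallowest, WT DMSO replicate 3, held 4009621 reads.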
